A study of Mus musculus with 3 samples.

Results

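The 8 genes described here are the C/EBP transcription factors Cebpa, Cebpb, Cebpd and Cebpe, the transcription factors Gfi1 and Spi1, and the growth factor receptor chains Csf3r and Csf2rb. They were taken by symbol from the 31053 genes of the expression matrices, and each symbol matched 1 gene ID. They were followed in neutrophils and monocytes of mouse blood by droplet single-cell RNA sequencing, with 1 library for each of 3 groups of C57BL/6J mice, all sampled at 12 h. The HDCA+CLP library came from mice given HDCA and CLP. The CLP library came from mice given CMC and CLP, and the Sham library from mice labelled Sham, whose label names no CMC. The labels leave the abbreviations unexpanded. CLP most often stands for caecal ligation and puncture, which brings on sepsis from gut contents. HDCA is taken to mean the bile acid hyodeoxycholic acid, and CMC the vehicle carboxymethylcellulose. How many animals went into a library is not stated in the labels. CLP differs from Sham in CMC as well as in surgery, which cannot be told apart. There were no replicates, so no difference between groups could be tested, and every interval below is a 95% interval that covers counting error only.

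C/EBP proteins are leucine zipper transcription factors that bind DNA as dimers and act one after another during granulocyte formation. C/EBPα is needed for the step into the granulocyte line, C/EBPε for the making of secondary granules, and C/EBPβ for granulocyte production under infection or growth factor stress, while C/EBPδ is known as a factor of the acute phase response. PU.1, the product of Spi1, is needed for all myeloid lines, and GFI1 is a repressor that favours granulocytes over monocytes. Csf3r encodes the receptor for granulocyte colony-stimulating factor (G-CSF), and Csf2rb the β chain shared by the receptors for GM-CSF, IL-3 and IL-5.

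A promoter window was found in the RefSeq table (GRCm38.p6) for 4 of the 8 genes, Cebpa, Cebpb, Csf3r and Gfi1, the last with a pair of start sites. The window of Csf3r is shown because this receptor gene differed past 2-fold both between neutrophil stages and between the CLP and Sham libraries. It holds the 250 bases before the start site, chr4:126024409-126024658 on the plus strand, 5′ to 3′, and the capitals mark a match to a PU.1 core motif.
Csf3r: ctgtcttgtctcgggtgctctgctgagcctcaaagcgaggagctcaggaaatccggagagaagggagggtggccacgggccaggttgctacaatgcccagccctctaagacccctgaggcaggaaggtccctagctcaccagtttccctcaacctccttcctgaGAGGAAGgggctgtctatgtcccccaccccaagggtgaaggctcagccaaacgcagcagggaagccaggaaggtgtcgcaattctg
The PU.1 motif searched was GAGGAAG on both strands, which 10.6% of all 32851 windows of the same length hold, and in Csf3r it began 86 bases before the start site. The C/EBP motif TTNNGNAA, held by 36.8% of windows, the STAT motif TTCNNNGAA, held by 7.02%, and the GFI1 motif AAATCA, held by 12.4%, were not found in the Csf3r window. The windows of Cebpa and Cebpb held none of the 4 motifs. A window of Gfi1 held a C/EBP match, TTGCTGAA on the opposite strand, which began 143 bases before its start site. The other Gfi1 window held none of the 4 motifs. A match is a string of letters and says nothing of binding in these cells.

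Neutrophils were cells with at least 5% of their unique molecular identifiers (UMIs, 1 per captured transcript) from S100a8 and S100a9. They were split by the share of UMIs from the granule protein genes Camp, Ltf and Ngp, which is high in immature neutrophils, into granule-high (at least 5%), granule-intermediate (1 to 5%) and granule-low cells (under 1%). Monocytes were cells below the S100 limit with at least 3 UMIs of Csf1r, Ms4a6c and F13a1. The HDCA+CLP library gave 2946 granule-high, 3987 granule-intermediate and 1479 granule-low neutrophils and 280 monocytes. The CLP library gave 1639, 2467 and 481 neutrophils in the same stages and 734 monocytes. The Sham library gave only 12, 8 and 212 neutrophils and 285 monocytes, so its granule-high and granule-intermediate values rest on too few cells to be read. The labels call the cells mononuclear, yet all 12 neutrophil markers were found in the granule-low cells of each library, and all 7 classical monocyte markers in the monocytes of each library. Medians of all kept cells were 7320, 6552.5 and 5253 UMIs in HDCA+CLP, CLP and Sham. Of the deposited barcodes, HDCA+CLP and CLP shared 34, HDCA+CLP and Sham 17, and CLP and Sham 26. Levels are in CPM, the UMIs of a gene per 1000000 UMIs of the population, and are compared between populations and libraries, not between genes.

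Cebpe was highest in granule-high neutrophils. Its level in the granule-high, intermediate and low neutrophils was 116, 71.8 and 39.0 CPM in the HDCA+CLP library. The same stages of the CLP library had 77.7, 53.1 and 24.2 CPM. In both CLP-operated libraries Cebpe was thus lower at each later stage, and the granule-high over granule-low log2 ratio was 1.58 in HDCA+CLP (95% interval 1.41 to 1.75) and 1.68 in CLP (1.32 to 2.07). Within neutrophils of HDCA+CLP the finer bins ran from 166 CPM at a granule share of 10 to 20% to 35.9 CPM under 0.1%, and in CLP from 80.5 to 29.2 CPM, with a low point of 22.4 CPM at 0.1 to 0.3%.

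Csf3r ran the other way. Its level in the granule-high, intermediate and low neutrophils was 96.9, 197 and 535 CPM in HDCA+CLP, and 80.2, 175 and 402 CPM in CLP. The granule-high over granule-low log2 ratio was -2.46 in HDCA+CLP (-2.53 to -2.39) and -2.33 in CLP (-2.44 to -2.21), a difference of 5.51-fold and 5.01-fold. In HDCA+CLP the level was 618 CPM at a granule share of 0.1 to 0.3% and 676 CPM under 0.1%, while CLP had 518 CPM and, in the 69 cells under 0.1%, 302 CPM. Without cells that held a monocyte UMI, the CLP values of these bins were 597 and 572 CPM, and those of HDCA+CLP 646 and 804 CPM.

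Other genes differed in how far their CPM changed with the stage. Cebpb had 1388, 1950 and 3182 CPM in the granule-high, intermediate and low neutrophils of HDCA+CLP, and 1269, 1813 and 2896 CPM in those of CLP. Spi1 had 623, 812 and 1498 CPM in HDCA+CLP, and 548, 740 and 1247 CPM in CLP. Cebpa was scarce in neutrophils, with 1.92, 4.01 and 9.59 CPM in HDCA+CLP and 2.22, 3.41 and 13.04 CPM in CLP. These 3 genes were lowest in the granule-high cells of both libraries, with granule-high over granule-low log2 ratios of -1.20 and -1.19 for Cebpb, -1.27 and -1.19 for Spi1, and -2.32 and -2.55 for Cebpa in HDCA+CLP and CLP. Cebpd stayed near one level in HDCA+CLP, at 161, 160 and 156 CPM, and was 138, 133 and 104 CPM in CLP. Csf2rb had 220, 239 and 222 CPM in HDCA+CLP and 203, 242 and 246 CPM in CLP. These totals include S100a8, S100a9, Camp, Ltf and Ngp, which took more UMIs in granule-high cells. A near-level CPM therefore does not show that a gene is independent of the stage. Cebpd in granule-high over granule-low cells lay above the all-gene medians of -0.22 in HDCA+CLP and -0.33 in CLP.

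**Figure D1:**
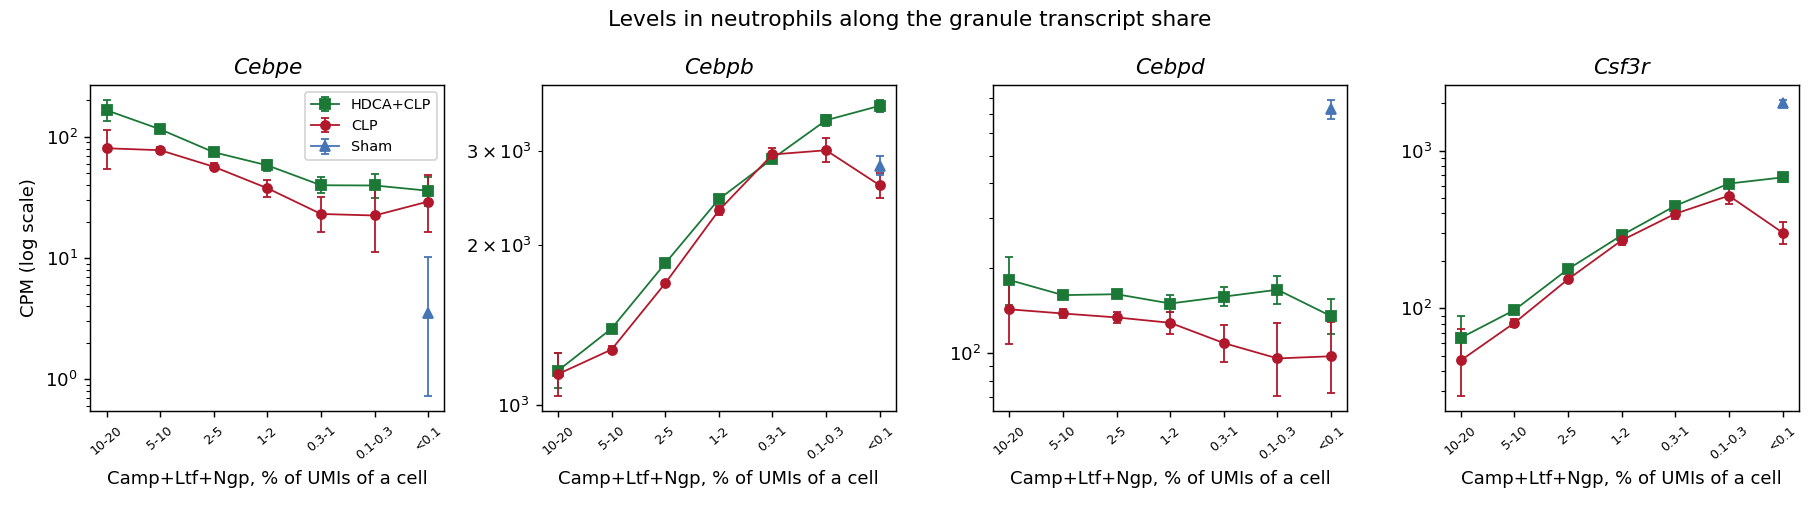
CPM (log axis) of Cebpe, Cebpb, Cebpd and Csf3r in neutrophils by the share of a cell's UMIs from Camp, Ltf and Ngp, from high on the left to under 0.1% on the right, for HDCA+CLP (squares), CLP (circles) and Sham (triangles). Bars are exact Poisson intervals, bins under 20 cells are left out, and Sham keeps only its bin under 0.1%, where Csf3r stood at 2005 CPM and Cebpd at 729 CPM.

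In each CLP-operated library 5 of the 8 genes lay past 2-fold between the granule-high and granule-low stages, 1 higher and 4 lower, against 24.4% of all genes with at least 20 UMIs in HDCA+CLP (6.61% higher and 17.8% lower) and 24.4% in CLP (5.3% higher and 19.1% lower). All 8 genes had at least 20 UMIs in HDCA+CLP, and 7 in CLP. The median of all genes was -0.22 in HDCA+CLP and -0.33 in CLP. The genes used for sorting took 45.4% of the UMIs of granule-high cells and 25.3% of those of granule-low cells in HDCA+CLP, which lowers every other gene in the first. With those genes left out of the totals, Cebpb came to -0.75 in HDCA+CLP and -0.71 in CLP, and Spi1 to -0.82 and -0.70, under 2-fold, while Cebpa, Cebpe and Csf3r stayed past it. In cells just inside and just outside the granule limits, Cebpe in HDCA+CLP had 99.7 CPM in cells with a granule share of 5 to 6% and 88.5 CPM in those of 4 to 5%, and Csf3r had 352 CPM at 1 to 1.2% and 362 CPM at 0.8 to 1%. Cebpa at the upper limit had 1.72 CPM inside and 3.27 CPM outside in HDCA+CLP, and 3.04 and 1.82 CPM in CLP, each from 34 UMIs or fewer.

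In the 12 granule-high Sham neutrophils Cebpe had 71 UMIs, or 465 CPM (363 to 586), and every one of these cells held a Cebpe UMI. They carried 71 of the 86 Cebpe UMIs of all Sham neutrophils, so the Sham value of 72.1 CPM over all stages rests on 12 of 232 cells. Comparisons with these cells are given as counts only and are not read. Against background shares of 40.2% for granule-high over granule-low in Sham, 26.6% for CLP over Sham in granule-high and 23.1% for CLP over Sham in granule-intermediate cells, 6, 5 and 2 of the 8 genes lay past 2-fold.

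The granule-low neutrophils were the stage in which CLP could be set against Sham, and there the receptor Csf3r and the factor Cebpd were lower. Csf3r had 402 CPM in CLP (378 to 427) and 1860 CPM in Sham (1774 to 1948), with 535 CPM in HDCA+CLP. The CLP over Sham log2 ratio was -2.21 (-2.32 to -2.10), 4.63-fold lower in CLP. Cebpd had 104 CPM in CLP (92.0 to 117) and 686 CPM in Sham (635 to 741), with 156 CPM in HDCA+CLP. Its log2 ratio was -2.72 (-2.93 to -2.52), 6.60-fold lower in CLP.

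These were 2 of the 8 genes past 2-fold, against 34.3% of all genes in either direction (21% higher and 13.4% lower), so the count is no more than the background. Gfi1 had under 20 UMIs here, so 7 genes could be called. The median of all genes was 0.06. Csf2rb was 246 CPM in CLP and 359 CPM in Sham, a log2 ratio of -0.54 (-0.74 to -0.35). Cebpb, at 2896 CPM in CLP and 2685 CPM in Sham (0.11), and Spi1, at 1247 CPM and 1068 CPM (0.22), lay close to the all-gene median. Cebpe had 24.2 CPM from 63 UMIs in CLP and 12.5 CPM from 12 UMIs in Sham, a log2 ratio of 0.95 (0.05 to 1.98) that passed 2-fold under 4 other settings, at 1.62 with cells weighted equally, 1.07 with doublets kept, 1.06 with all deposited barcodes and 1.00 with an S100 limit of 10%. Cebpa was 13.04 CPM in CLP and 11.4 CPM in Sham, with an interval from -0.83 to 1.32.

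The granule-low cells of the CLP-operated libraries differed from those of Sham in summed markers. Some lists share genes, and the sums do not tell a change of mixture from a change of level within cells. Markers of immature neutrophils summed to 34445 CPM in HDCA+CLP, 30172 CPM in CLP and 6198 CPM in Sham, with 10, 10 and 9 of the 10 markers found. The 9 mature neutrophil markers summed to 24296, 24654 and 29677 CPM. Classical monocyte markers summed to 3590, 5433 and 4218 CPM, all 7 found in each library. Of the 6 red cell markers, 5, 5 and 1 were found, and they summed to 2144, 1159 and 5.20 CPM, while 7, 7 and 3 of the 7 NK cell markers were found, at 52.8, 148 and 3.12 CPM. A list of 14 immediate early genes, which blood handling can induce, summed to 6201, 4922 and 12486 CPM, and the nuclear RNA Malat1 stood at 17168, 11045 and 26251 CPM. The part of these differences in the Csf3r and Cebpd values was not tested.

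The libraries were also set side by side in a narrower bin of the granule share. Cells of the same bin need not be of the same stage. T cells, which should lack granule transcripts, had a median share of 0.0235% in CLP and 0% in Sham. The part of stage in the values below was not tested. In cells with a share under 0.1%, which were 69 of the 481 granule-low neutrophils in CLP and 195 of the 212 in Sham, Csf3r was 302 CPM in CLP and 2005 CPM in Sham (-2.73). Cebpd was 97.5 CPM in CLP and 729 CPM in Sham (-2.90), and Cebpe was 29.2 CPM in CLP and 3.50 CPM, from 3 UMIs, in Sham (3.06, from 1.24 to 5.49). Of the 69 CLP cells, 46 held no monocyte UMI, and they carried 171278 of the 512861 UMIs of the bin. In those 46 cells and the 131 such Sham cells Csf3r was 572 CPM in CLP and 2115 CPM in Sham (-1.89, from -2.20 to -1.59). Cebpd was 117 CPM in CLP and 749 CPM in Sham there (-2.68, from -3.41 to -2.04). Cebpe had 17.5 CPM from 3 UMIs in those CLP cells and 0 UMIs in those Sham cells, with a lower bound of 0.37 for the log2 ratio. The log2 difference in Csf3r was thus smaller without monocyte UMIs, and that in Cebpd changed little.

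At an equal depth of 1500 UMIs per cell, Csf3r was found in 54.0% of granule-low neutrophils in HDCA+CLP, 42.9% in CLP (38.3 to 47.6) and 88.6% in Sham (83.5 to 92.5). Cebpd was found in 20.2%, 13.6% and 60% of the same cells. Without thinning, the shares were 86.7%, 79.0% and 99.1% for Csf3r, and 47.1%, 37.0% and 88.2% for Cebpd. T cells, which should lack both, gave at most 0.405% for Csf3r and 0.729% for Cebpd at the equal depth, far below the neutrophil shares. The median depth of granule-low neutrophils was 4837, 4846 and 4145.5 UMIs in HDCA+CLP, CLP and Sham, and that of T cells 4080, 4711.5 and 6604 UMIs.

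**Figure D2:**
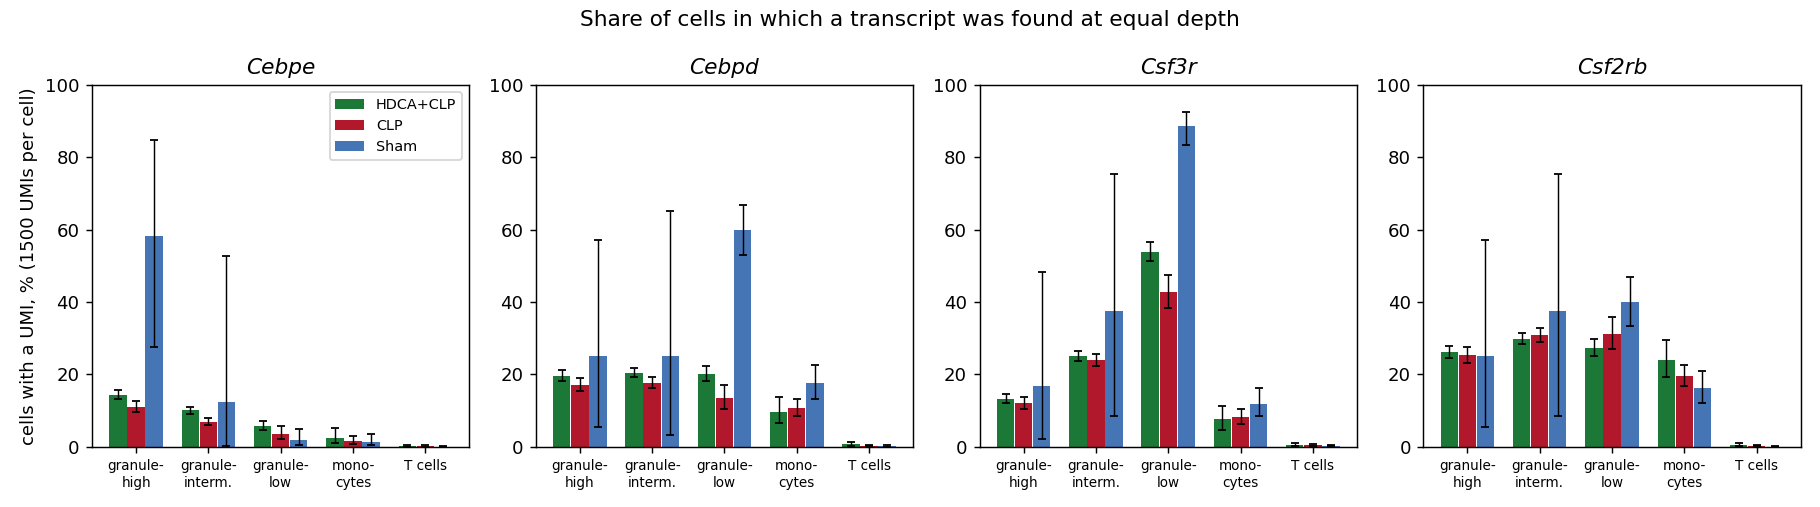
Share of cells with at least 1 UMI of Cebpe, Cebpd, Csf3r or Csf2rb after thinning each cell to 1500 UMIs, by population and library, with exact Clopper-Pearson intervals. Csf3r and Cebpd were found in most Sham granule-low neutrophils (88.6% and 60%), and the wide Sham bars of the granule-high and intermediate stages come from 12 and 8 cells.

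In monocytes, CLP over Sham placed Cebpd lower and Cebpe higher past 2-fold. These were 2 of the 7 genes with at least 20 UMIs, against 27.7% of all genes (10.5% higher and 17.2% lower). The median of all genes was -0.21. Cebpd had 76.1 CPM in CLP (71.1 to 81.4) and 158 CPM in Sham (144 to 173), with 84.5 CPM in HDCA+CLP. Its log2 ratio was -1.05, and it came to -0.84 with size factors and -0.89 with cells weighted equally, under 2-fold. Csf3r lay at the edge, at 43.6 CPM in CLP and 85.5 CPM in Sham (-0.97, from -1.19 to -0.75), and passed 2-fold with a mitochondrial limit of 5% (-1.01). Cebpe had 93 UMIs in CLP monocytes, or 8.18 CPM, and 11 UMIs in Sham monocytes, or 3.59 CPM (1.19, from 0.28 to 2.24).

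Cebpe is a gene of granulocytes, and neutrophil markers moved with it in monocytes. Csf3r had 43.6 CPM in CLP monocytes and 85.5 CPM in Sham monocytes, 18.1-fold and 48.1-fold above T cells of the same library. The 12 neutrophil markers summed to 8968 CPM in HDCA+CLP monocytes, 7059 CPM in CLP and 765 CPM in Sham, where Ly6g was at 0. Cebpe was 17.5-fold above T cells in CLP monocytes, where the T cell value rests on 7 UMIs. In Sham monocytes it was 66.7-fold above T cells, with a log2 interval from 3.28 to 11.49. Of the CLP monocytes, 90 met the rule for early myeloid cells, which carry primary granule transcripts, as did 35 in HDCA+CLP and none in Sham. The part of these cells and of carried-over neutrophil RNA in the Cebpe value was not tested.

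Monocytes also differed in their kinds. Cells with classical markers ahead numbered 255 in HDCA+CLP, 658 in CLP and 158 in Sham, and cells with non-classical markers ahead 22, 66 and 119. Cebpd was lower in CLP than in Sham in both kinds, at 78.0 CPM in CLP and 197 CPM in Sham for the classical kind (-1.34) and 34.5 and 75.9 CPM for the non-classical kind (-1.14, from -1.97 to -0.37). Csf3r had 42.1 CPM in classical CLP monocytes and 88.5 CPM in those of Sham (-1.07), and 70.9 CPM and 83.7 CPM in the non-classical kind, with an interval from -0.85 to 0.35. Csf2rb was alike in the classical kind, at 137 CPM in CLP and 140 CPM in Sham (-0.21 to 0.16). In the non-classical kind Csf2rb was 307 CPM in CLP and 118 CPM in Sham (1.38, from 1.01 to 1.74). No all-gene share or median was worked out for either kind, so ratios within a kind have no background beside them. Cebpb was 2947 CPM in CLP and 3311 CPM in Sham in non-classical cells, and 1802 CPM and 1834 CPM in classical cells, so it was higher in the non-classical kind of each library. Cebpa in the classical kind was 66.3 CPM in CLP and 109 CPM in Sham (-0.71), and Spi1 was 833 CPM in CLP and 612 CPM in Sham (0.44).

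**Figure D3:**
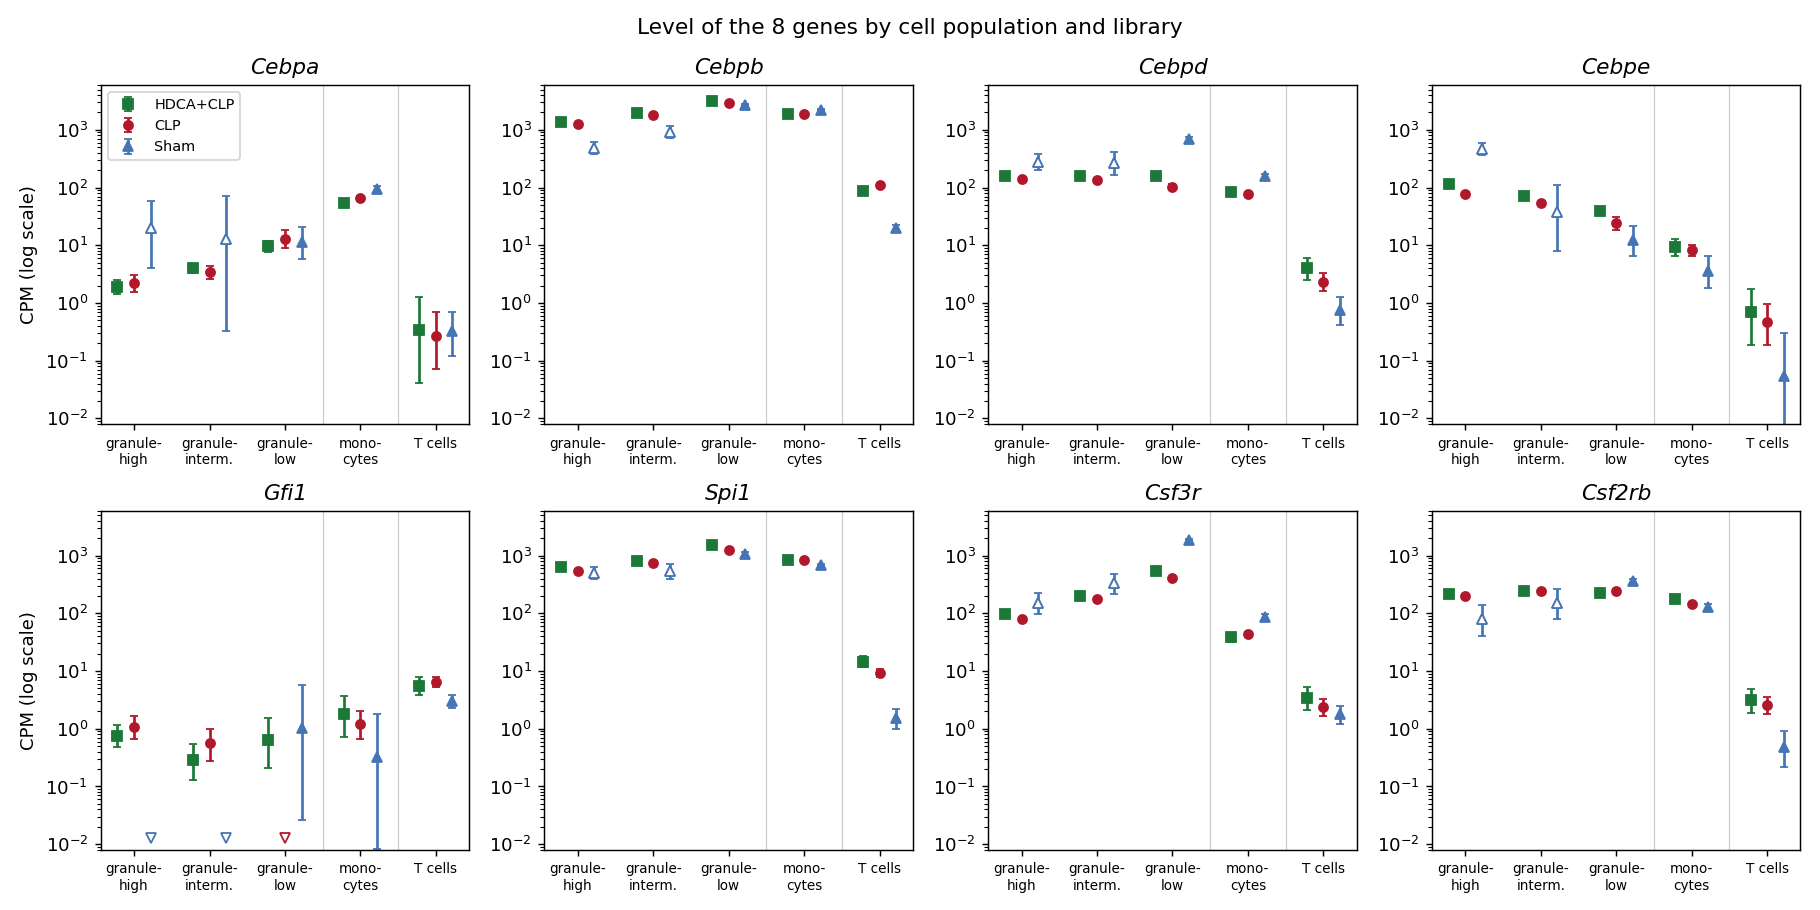
CPM (log axis) of the 8 genes in granule-high, granule-intermediate and granule-low neutrophils, monocytes and T cells of HDCA+CLP (squares), CLP (circles) and Sham (triangles), with exact Poisson intervals. Open symbols mark populations under 20 cells and open downward triangles at the foot mark 0 UMIs, while lower bars that leave the panel run off its foot. Csf3r and Cebpd in granule-low neutrophils were highest in Sham, at 1860 and 686 CPM.

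HDCA+CLP over CLP, which shares the CLP library with the comparison above, placed 0 of the 8 genes past 2-fold in any of the 4 populations. In granule-low cells 7 of the 8 had at least 20 UMIs. The background of genes past 2-fold was 3.83% in granule-high, 3.64% in granule-intermediate and 7.15% in granule-low neutrophils, and 4.52% in monocytes. Cebpe was the gene furthest to the higher side in all 3 neutrophil stages. In granule-high cells it had 116 CPM in HDCA+CLP (113 to 120) and 77.7 CPM in CLP (73.6 to 81.9), 1.50-fold higher with an interval from 1.41 to 1.60. In granule-intermediate cells it was 1.35-fold higher (1.26 to 1.46), and in granule-low cells 1.61-fold higher (1.23 to 2.15). Found in 14.4% of granule-high cells in HDCA+CLP and 11.0% in CLP at 1500 UMIs per cell, it kept that order at equal depth. In monocytes Cebpe was 9.38 CPM in HDCA+CLP and 8.18 CPM in CLP, with a log2 interval from -0.40 to 0.77.

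The other genes differed less between the CLP-operated libraries. Cebpd in granule-low cells was 156 CPM in HDCA+CLP and 104 CPM in CLP, 1.50-fold higher (1.31 to 1.72), and 1.16-fold and 1.20-fold higher in the granule-high and intermediate cells. Csf3r in granule-low cells was 535 CPM in HDCA+CLP and 402 CPM in CLP, 1.33-fold higher (1.24 to 1.43). In the bin under 0.1% the Csf3r ratio was 2.24-fold, at 676 CPM in HDCA+CLP and 302 CPM in CLP, but 1.41-fold without the cells that held a monocyte UMI, at 804 CPM in HDCA+CLP and 572 CPM in CLP. Cebpb was 1.09-fold, 1.08-fold and 1.10-fold higher in the granule-high, intermediate and low cells, and Spi1 was 1.14-fold, 1.10-fold and 1.20-fold higher.

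Csf2rb differed little and not one way, with log2 ratios of 0.12 in granule-high, -0.02 in granule-intermediate and -0.15 in granule-low neutrophils and 0.28 in monocytes. Cebpa in monocytes was 54.5 CPM in HDCA+CLP and 66.0 CPM in CLP (-0.28, from -0.50 to -0.05). All-gene medians in these comparisons were -0.01, -0.07 and -0.11 in the neutrophil stages and 0.05 in monocytes.

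**Figure D4:**
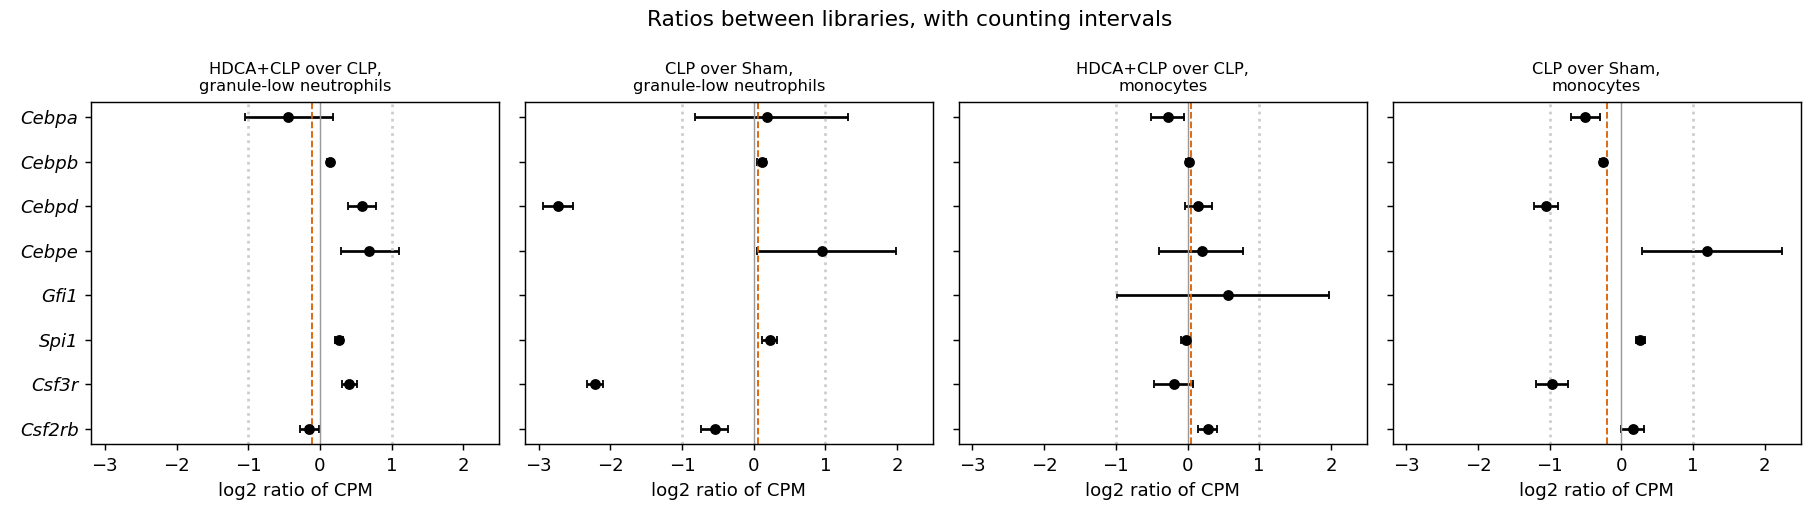
Log2 ratios of the 8 genes with exact conditional intervals in granule-low neutrophils and monocytes, for HDCA+CLP over CLP and CLP over Sham. The dashed line is the median of all genes, dotted lines mark 2-fold, genes under 20 UMIs in both libraries together are left out, and the points past 2-fold are Csf3r (-2.21) and Cebpd (-2.72) in granule-low neutrophils and Cebpd (-1.05) and Cebpe (1.19) in monocytes, all for CLP over Sham.

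Neutrophils as a whole over monocytes of the same library separated Cebpa from Cebpe and Csf3r. Cebpa had 3.72 CPM in neutrophils and 54.5 CPM in monocytes of HDCA+CLP, 3.52 and 66.0 CPM in CLP, and 12.6 and 93.3 CPM in Sham, with log2 ratios of -3.87, -4.23 and -2.89. Cebpe had 87.5 and 9.38 CPM in HDCA+CLP, 62.0 and 8.18 CPM in CLP, and 72.1 and 3.59 CPM in Sham (3.22, 2.92 and 4.33). Csf3r had 191 and 38.3 CPM in HDCA+CLP, 148 and 43.6 CPM in CLP, and 1540 and 85.5 CPM in Sham (2.32, 1.76 and 4.17). The pooled neutrophils differed in stage between libraries. Granule-low cells were 1479 of 8412 in HDCA+CLP, 481 of 4587 in CLP and 212 of 232 in Sham. The part of stage in the differences between libraries was not tested. With cells weighted equally the Sham ratio of Cebpe came to 3.38.

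In this comparison 4 of the 8 genes in HDCA+CLP, 3 in CLP and 5 in Sham were past 2-fold, against 58.6%, 60% and 61.8% of all genes. In Sham 7 of the 8 had at least 20 UMIs. Cebpa, Cebpe and Csf3r were past 2-fold in each library, with Gfi1 (lower, -1.78, and -0.75 with size factors) in HDCA+CLP and with Cebpd and Csf2rb in Sham, and the medians of all genes were -1.01, -0.97 and -1.09. Cebpd was higher in neutrophils in every library, by 0.92 in HDCA+CLP, 0.81 in CLP and 1.94 in Sham on the log2 scale. Cebpb and Spi1 were near equal in the CLP-operated libraries (-0.03 and -0.03 in HDCA+CLP, -0.18 and -0.29 in CLP), and these small differences turned positive with size factors (1.00 and 1.00 in HDCA+CLP, 0.80 and 0.70 in CLP) and with totals that leave out the sorting genes (0.70 and 0.71, 0.60 and 0.50). Csf2rb was higher in neutrophils by 0.37, 0.63 and 1.24 in HDCA+CLP, CLP and Sham. Its counts may be uncertain, because Csf2rb2 is a near-identical neighbour in the mouse and reads of the pair may not be told apart. Csf2rb2 itself had 37.0 CPM in granule-low neutrophils of HDCA+CLP, 24.6 CPM in those of CLP and 38.5 CPM in those of Sham.

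Because neutrophils made up 77.4% of kept cells in HDCA+CLP, 46.3% in CLP and 3.56% in Sham, the share of each gene's UMIs that neutrophils held differed between the libraries. Neutrophils held 98.3% of the Csf3r UMIs of all kept cells in HDCA+CLP, 91.2% in CLP and 80.1% in Sham. They held 93.8%, 73.0% and 24.7% of the Cebpb UMIs and 94.3%, 73.5% and 24.4% of the Spi1 UMIs. Monocytes held 44.4%, 82.9% and 89.4% of the Cebpa UMIs.

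Gfi1 was hardly detected in neutrophils. It had 37 UMIs in 8412 neutrophils of HDCA+CLP, 30 in 4587 of CLP and 1 in 232 of Sham, which is 0.53, 0.75 and 0.84 CPM. Monocytes had 1.83, 1.23 and 0.33 CPM in HDCA+CLP, CLP and Sham. NK cells had more, at 11.7, 16.8 and 13.6 CPM, and T cells had 5.53, 6.49 and 3.01 CPM, so the neutrophil and monocyte values lay below those of NK and T cells in each library. B cells had 0 UMIs in 261 cells of HDCA+CLP, 11.8 CPM in CLP and 1.04 CPM in Sham. At this depth every interval of a Gfi1 ratio between the libraries or between neutrophil stages of the HDCA+CLP and CLP libraries included 0, and of the neutrophil over monocyte ratios only that of HDCA+CLP left it out (-2.96 to -0.37). The early myeloid cells, 45 in HDCA+CLP and 98 in CLP, had 4.27 and 2.21 CPM of Gfi1, and 41.0 and 59.5 CPM of Cebpa.

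Among the related genes, chosen with earlier results of these data known, 21 genes of G-CSF receptor signalling were measured in granule-low neutrophils. For CLP over Sham 5 were at least 2-fold higher and 4 lower, against 34.3% of all genes in either direction, with a median log2 ratio of -0.39 against 0.06. Socs1 and Cish, feedback inhibitors of cytokine receptors, were higher, at 69.4 CPM in CLP and 11.4 CPM in Sham (2.60) and 22.6 CPM and 2.08 CPM from 2 UMIs (3.44, from 1.53 to 6.52). The kinase gene Pik3cd, at 67.9 CPM in CLP and 216 CPM in Sham (-1.67), and the transcription factor gene Stat5b, at 34.1 CPM and 105 CPM (-1.62), were lower. Of the same 21 genes, 0 passed 2-fold for HDCA+CLP over CLP in granule-low cells, against 7.15% of all genes. Their median was 0.05 against -0.11 over all genes.

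Of the 8 growth factor ligand genes, 3 had at least 20 UMIs in monocytes. Csf3, which encodes G-CSF, had 607 UMIs or 53.4 CPM in CLP monocytes and 0 in Sham monocytes, at least 54.6-fold higher against a floor of 3 counts in the Sham library. For HDCA+CLP over CLP 0 of 3 ligand genes passed 2-fold in monocytes, against 4.52% of all genes. In monocytes, Socs3, the main feedback inhibitor of the G-CSF receptor, was 469 CPM in CLP and 76.7 CPM in Sham (2.61), and 406 CPM in HDCA+CLP. Stat5b in monocytes was lower, at 20.4 CPM in CLP and 60.3 CPM in Sham (-1.56).

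Of 6 measured C/EBP partners in granule-low neutrophils, 1 was higher and 2 lower for CLP over Sham, against 21% and 13.4% of all genes, with a median of -0.92 against 0.06. Batf, a leucine zipper factor, was 163 CPM in CLP and 27.0 CPM in Sham (2.60). Ddit3, the stress factor CHOP, was 28.8 CPM in CLP and 90.5 CPM in Sham (-1.65), and Trib1, a pseudokinase known to promote breakdown of C/EBPα, was 120 CPM and 280 CPM (-1.22). In monocytes 1 of 7 partners was higher and 4 lower, against 10.5% and 17.2% of all genes, with a median of -1.13 against -0.21 over all genes. Cebpg, a C/EBP family member not among the 8, was 40.4 CPM in CLP monocytes and 102 CPM in Sham monocytes (-1.33).

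The stages were cut by Camp, Ltf and Ngp, so other granule genes describe the stages and are no independent check of them. In HDCA+CLP 7 of 17 secondary and tertiary granule genes were at least 2-fold higher in granule-high than in granule-low cells and 1 was lower, against 6.61% higher and 17.8% lower of all genes, with a median of 0.86 against -0.22. In CLP 5 were higher and 1 lower, against 5.3% and 19.1% of all genes, with a median of 0.72 against -0.33. Chil3 had 9663 CPM in granule-high and 1583 CPM in granule-low cells of HDCA+CLP, while Retnlg, a gene of more mature cells, had 7408 and 18120.4 CPM. Of 16 genes known to need PU.1, 1 was higher and 7 lower in granule-high cells of HDCA+CLP, with a median of -0.90 against -0.22, and with Il1b at 25.1 CPM in granule-high and 1817 CPM in granule-low cells and Cybb, a subunit of the oxidase, at 864 and 201 CPM.

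Of 7 measured genes known to be repressed by GFI1, 6 were lower in granule-high than in granule-low cells of HDCA+CLP, among them Csf1r, at 0.99 and 45.9 CPM, and Irf8, at 0.50 and 15.0 CPM. The list median was -2.63 against -0.22 over all genes, of which 17.8% were lower. Csf1r is also 1 of the genes by which monocytes were chosen, and 44 of the 1479 granule-low cells of HDCA+CLP held at least 3 UMIs of those genes, whose part in these values was not tested. Of 6 measured primary granule genes, 5 were higher and 0 lower for CLP over Sham in granule-low cells, against 21% and 13.4% of all genes, among them Elane, with 127 UMIs in CLP and 0 in Sham, at least 15.6-fold higher against the floor of 3 counts. Of all CLP neutrophils, 8 met the rule for early myeloid cells, as did 10 of those of HDCA+CLP and none of those of Sham, and their part in these values was not tested. For HDCA+CLP over CLP 2 of 8 were higher and 5 lower there, against 7.15% of all genes in either direction. Elane, which encodes neutrophil elastase, had 6.35 CPM in granule-low cells of HDCA+CLP and 48.7 CPM in those of CLP (-2.94), whereas Mpo, myeloperoxidase, had 7.26 CPM and 0.38 CPM (4.24, from 1.70 to 9.57, on 56 UMIs and 1 UMI).

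Genes whose levels went most with those of the 8 were ranked by Pearson's r of log2(CPM + 10) over the 12 sums of 4 populations in 3 libraries, among 8572 genes. The sums share libraries and stages, so these values are descriptions. Cebpe went most with Ffar2 (r = 0.97), Pdzd8 (0.97) and Ly75 (0.96). Csf3r went most with Ndel1, Usp32 and Zyx (each 0.96). Cebpd went with Tmco3 (0.97), Snx13 (0.95) and Stx17 (0.93), and Cebpb with Vps28 (0.98), Pim1 (0.97) and Emilin2 (0.96). Cebpa went with Plekho1 (0.99), Akr1b3 (0.99) and Rassf4 (0.98), Spi1 with Slc44a1 (0.97) and Ccrl2 (0.96), and Csf2rb with Sema6b (0.97), Lmnb1 (0.95) and Zfp597 (0.94). Gfi1 had too few UMIs to be ranked. Over the 10 sums of at least 20 cells all of these r values lay between 0.87 and 1.00.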

How the data were processed

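Raw UMI counts for every gene in each barcode were deposited, with Cell Ranger 5.0.1 named in the file headers. Seurat 4.0.6, R 4.0.3 and the build mm39 appear in the submitters' processing notes. Libraries held 95178381 (HDCA+CLP), 87031721 (CLP) and 42427093 UMIs (Sham). Cells were kept with at least 500 UMIs, 200 genes and at most 10% mitochondrial UMIs. Doublets were scored against 2 simulated doublets per cell (30 components, 50 neighbours), and the highest 0.8% per 1000 barcodes were left out, 1156 in HDCA+CLP, 940 in CLP and 380 in Sham, leaving 10867, 9900 and 6511 cells. Doublets of neutrophils with monocytes may remain.

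Counts were summed per population. CPM have exact Poisson intervals, ratios exact conditional binomial intervals and shares exact Clopper-Pearson intervals, all 95% and for counting error only. A gene counts as past 2-fold with at least 20 UMIs in both populations together. A gene at 0 was set at a floor of 3 counts. The calculation was checked on simulated counts. List genes named are among the 2 highest and 2 lowest of their list by the interval bound nearest 0 with at least 50 UMIs, and the CLP over Sham values of Csf2rb2 were added after they were seen. Genes whose pattern was most like that of 1 of the 8 are the 3 with the highest r and at least 200 UMIs, of which 1 is not reported here. The 8 genes and 9 lists were chosen with earlier results of these data known. The immediate early genes were chosen after seeing the data. With 1 library per group no test was made. Other settings tried were doublets kept, all deposited barcodes, a mitochondrial limit of 5%, an S100 limit of 10%, totals without sorting genes, cells weighted equally, size factors, a minimum of 100 UMIs, monocytes with at least 5 UMIs, thinning to 1000 or 3000 UMIs, and, chosen after seeing the data, neutrophils without a monocyte UMI. Python 3.11.15, NumPy 2.4.6, SciPy 1.17.1, pandas 2.3.3 and matplotlib 3.10.9 were used. Promoter windows are on GRCm38.p6, not the submitters' build.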

Additional observations from a re-analysis of the deposited data

Results flagged for a closer look

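Cebpb had opposite signs in neutrophils and monocytes for CLP over Sham, with log2 ratios of 0.11 in granule-low neutrophils and -0.26 in monocytes, each with an interval that leaves out 0. The difference between the populations was not tested, and against the all-gene medians of 0.06 and -0.21 both values shrink. In monocytes with classical markers ahead the ratio was -0.02 (-0.07 to 0.03), and in those with non-classical markers ahead -0.17 (-0.26 to -0.08), while the 2 kinds made up 658 and 66 cells in CLP and 158 and 119 in Sham.

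Csf2rb had opposite signs for HDCA+CLP over CLP, with 0.12 in granule-high neutrophils, -0.15 in granule-low neutrophils and 0.28 in monocytes. This difference was not tested either, and the all-gene medians were -0.01, -0.11 and 0.05.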

How the results depend on the processing

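The 14 counts of genes past 2-fold were recomputed under each other setting that bears on them, and the cause of each move below was not tested unless the setting shows it. Not every move is listed. For CLP over Sham in monocytes the count of 2 became 1 with cells weighted equally and 1 with size factors. It became 3 with doublets kept and with all deposited barcodes. With a mitochondrial limit of 5% it also became 3, and there the added gene was Csf3r, at -1.01. In granule-low neutrophils 2 became 3 with doublets kept, all deposited barcodes, an S100 limit of 10% and cells weighted equally (Cebpe), and in granule-intermediate neutrophils, where Sham has 8 cells, 2 became 1 with a minimum of 100 UMIs. For HDCA+CLP over CLP in granule-intermediate cells 0 became 1 with cells weighted equally (Gfi1, at -1.26). Between granule-high and granule-low cells, leaving the sorting genes out of the totals gave 3 in HDCA+CLP and 3 in CLP in place of 5, and size factors gave 4 and 3. In CLP Spi1 also came under 2-fold with doublets kept (-0.97) and with all deposited barcodes (-0.97). In HDCA+CLP Gfi1 reached 1.01 with cells weighted equally and 1.15 without neutrophils that held a monocyte UMI. For neutrophils over monocytes leaving out the sorting genes and size factors each gave 6 in place of 4 in HDCA+CLP and 5 in place of 3 in CLP, and size factors gave 7 in place of 5 in Sham. Cebpd there reached 1.06 in HDCA+CLP with cells weighted equally. Gfi1 there reached -1.07 in CLP with doublets kept and -1.06 with all deposited barcodes. No called ratio of a single gene changed sign. Depth limits Gfi1, and Cebpe in Sham. No paired analysis was possible because each group has 1 library, and no library could be left out for the same reason.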
